A study of Mus musculus with 6 samples.

Results

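The TAM receptors are 3 receptor tyrosine kinases, Tyro3, Axl and Mertk, and Gas6 and Pros1 (protein S) are their ligands. These 5 genes were chosen by symbol from the 32285 genes of the count matrices, and all 5 were detected. Their UMIs were followed through the cell classes of the lung in each mouse. The cells came from the right lungs of 6 male hCTLA4 mice, a C57BL/6 knock-in from genOway in which human CTLA4 exons replace part of the mouse gene. All mice were 12 weeks old and all received oropharyngeal bleomycin, a drug that injures the lung and causes fibrosis, at 1.25 U per kg in 2 doses given 2 weeks apart. Treatment began on day 21, which the paper's Results count from the second bleomycin dose. The control mice (n = 3) received IgG1 isotype control and the treated mice (n = 3) received ipilimumab at 5 mg per kg. Both were given as 2 injections a week for 4.5 weeks. Ipilimumab is an antibody that binds human CTLA4 and blocks it. All levels below are therefore those of bleomycin-injured lungs. All mice were males of 1 strain, and the single-cell suspension depends on enzymatic digestion, which does not release all cell types equally.

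In efferocytosis, a phagocyte engulfs a dying cell before it bursts. Gas6 and Pros1 bridge the 2 cells: their vitamin K-dependent carboxylated end binds phosphatidylserine exposed on the dying cell, and their other end binds a TAM receptor on the phagocyte. Mertk is the TAM receptor best known for the uptake of apoptotic cells by tissue macrophages, and mouse alveolar macrophages are known to carry both Mertk and Axl. Gas6 binds all 3 receptors, whereas Pros1 is known as a ligand of Tyro3 and Mertk.

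In GRCm38 coordinates, Mertk (ENSMUSG00000014361) lies on the plus strand of chromosome 2 from 128698956 to 128802894 and has 19 exons. An antisense gene, Gm14011, overlaps it, and a gene for a small nucleolar RNA lies inside it on the same strand. Axl (ENSMUSG00000002602) lies on the minus strand of chromosome 7 from 25757273 to 25788705 with 20 exons. Tyro3 (ENSMUSG00000027298) lies on the plus strand of chromosome 2 from 119797733 to 119818104 with 19 exons. Gas6 (ENSMUSG00000031451) lies on the minus strand of chromosome 8 from 13465374 to 13494490 with 15 exons, and Tmem255b overlaps it on the opposite strand. Pros1 (ENSMUSG00000022912) lies on the plus strand of chromosome 16 from 62854307 to 62929346 with 15 exons.

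The promoters of Mertk and Axl are shown because both receptors were highest in the same cell class. Each is the 250 bases before the start of the gene in RefSeq, on GRCm38.p6, printed 5′ to 3′ on the strand of the gene. The Mertk stretch is chr2:128698665-128698914 on the plus strand, and the Axl stretch is chr7:25788734-25788983 on the minus strand. Capitals mark matches on either strand to a PU box (GAGGAA, the core bound by the myeloid factor PU.1) or a GC box (GGGCGG).
Mertk: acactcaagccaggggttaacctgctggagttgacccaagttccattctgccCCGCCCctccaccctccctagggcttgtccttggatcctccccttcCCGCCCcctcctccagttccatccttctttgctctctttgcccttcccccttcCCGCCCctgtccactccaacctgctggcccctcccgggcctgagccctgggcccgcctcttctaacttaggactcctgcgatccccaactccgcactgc
Axl: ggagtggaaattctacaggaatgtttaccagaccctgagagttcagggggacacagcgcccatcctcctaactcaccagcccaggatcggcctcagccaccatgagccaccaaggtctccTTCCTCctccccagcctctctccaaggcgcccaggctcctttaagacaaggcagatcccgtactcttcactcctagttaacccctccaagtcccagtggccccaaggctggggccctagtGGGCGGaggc
The Mertk stretch held 3 GC boxes and 0 PU boxes, and the Axl stretch held 1 of each. Neither held a TATA box (TATAAA). In all 32851 promoters of the same length, 32.7% held a GC box, 23.3% a PU box and 12.4% a TATA box. G and C made up 63.6% of the Mertk stretch and 60% of the Axl stretch. A match describes letters in this window and does not show that a factor binds there.

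A total of 24255 cells were used, between 3269 and 4348 per mouse, from libraries of 37666042 to 48612412 UMIs. Pairs of libraries shared between 0 and 8 cell barcodes. The library of ipilimumab replicate 1 stood apart: 22056 of its barcodes had over 100 UMIs, against 4834 to 6230 in the others, and 78.9% of its UMIs were in called cells, against 92.4% to 93.1%. It also gave 173 of all 230 AT2-like cells and 137 of all 382 aerocyte endothelial-like cells. Classes were named from marker genes, and neither the TAM genes nor the other efferocytosis genes took part in the clustering. In every class the summed level of its markers was higher than in the remaining cells and no defining marker was at 0. The names were given from these same markers, so this describes the classes and does not test the names. The 7 markers of alveolar macrophages summed to 2925 CPM (UMIs of the genes per 1000000 UMIs of all genes) in that class, between 2730 and 3063 in the 6 mice, and to 38.7 in all other cells.

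Alveolar macrophage-like cells held nearly all Mertk UMIs of the lung suspensions. Of 59064 Mertk UMIs in cells, 56985 were in the 3152 alveolar macrophage-like cells, which is 96.5% (95% exact binomial interval 96.3 to 96.6, counting error only). The share was 97.1%, 98.1% and 95.3% in the IgG1 mice and 91.2%, 97.6% and 95.6% in the ipilimumab mice, with a mean of 95.8% ± 2.51 (SD, n = 6). The lowest share was that of ipilimumab replicate 1, the library that stood apart; without it the mean was 96.7%. Aerocyte endothelial-like cells held 1.33% of the UMIs (786), general capillary endothelial-like cells 0.560% (331) and interstitial macrophage-like cells 0.367% (217). The 1023 cells left unnamed held 373. A group of 119 unnamed cells with few UMIs, in which both alveolar macrophage markers and division genes such as Mki67 were high, had a Mertk level of 445 ± 112 CPM, and 71 of these cells came from ipilimumab replicate 1.

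**Figure D1:**
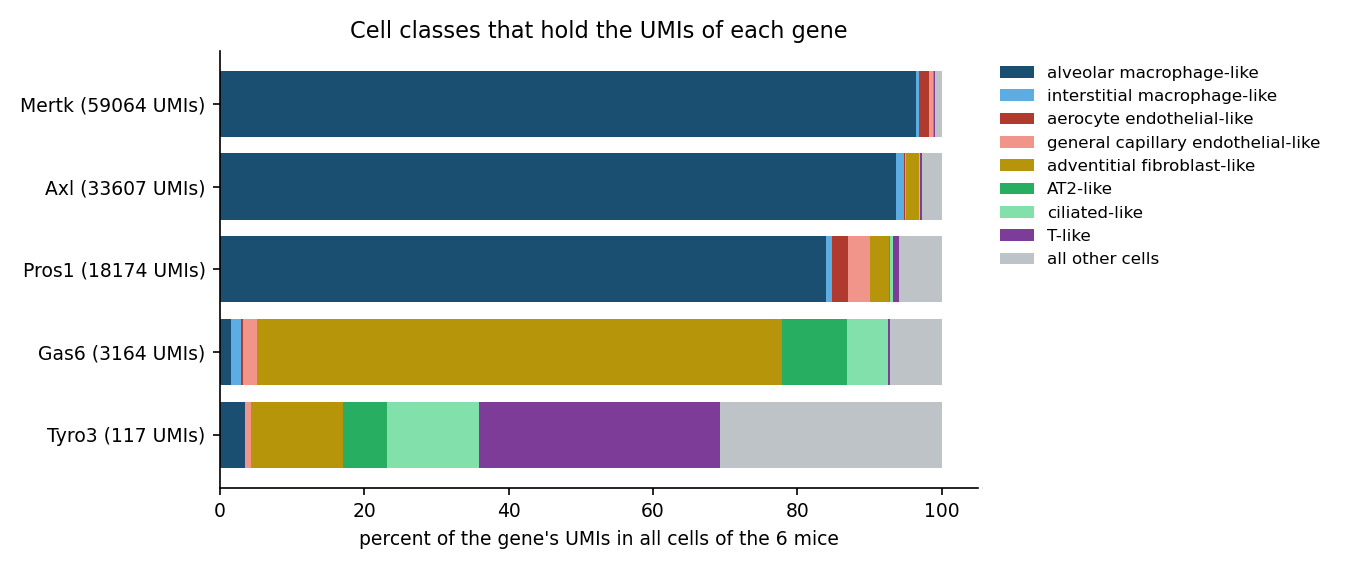
Percent of the UMIs of each of the 5 genes (horizontal axis, all 6 mice pooled) that lay in each cell class (colours), with the number of UMIs beside the gene name. Mertk, Axl and Pros1 UMIs were mostly in alveolar macrophage-like cells (96.5%, 93.7% and 83.9%), and Gas6 UMIs in adventitial fibroblast-like cells (72.7%).

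Among cell classes with at least 5 cells in every mouse, Mertk was highest in alveolar macrophage-like, then aerocyte endothelial-like cells. Levels are in CPM, from UMIs summed over the cells of a class in a mouse. In alveolar macrophage-like cells Mertk was at 1010, 720 and 946 in IgG1 replicates 1 to 3 and at 708, 870 and 557 in ipilimumab replicates 1 to 3, with a mean of 802 ± 170 (SD, n = 6). In aerocyte endothelial-like cells, the gas-exchange capillary cells that carry Car4 and Ednrb, it was at 362.0, 486 and 435 in the IgG1 mice and at 251, 195 and 362.2 in the ipilimumab mice, with a mean of 349 ± 109. The lowest macrophage value, 557, was above the highest aerocyte value, 486. In interstitial macrophage-like cells, the C1q-positive macrophages of the lung tissue, it was at 48.3, 117 and 419 in the IgG1 mice and at 112, 154 and 83.6 in the ipilimumab mice, with a mean of 156 ± 134, and the value of 419 came from 7 cells. General capillary endothelial-like cells, which carry Gpihbp1 and Aplnr, had 100, 73.3 and 69.3 in the IgG1 mice and 73.0, 184 and 66.1 in the ipilimumab mice. Their mean was 94.3 ± 45.6, and ipilimumab replicate 2 lay above the other 5.

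Adventitial fibroblast-like cells had a Mertk level of 19.8 ± 11.5 (n = 6) and ciliated-like cells 14.1 ± 20.3 (n = 5). The 43 alveolar fibroblast-like cells reached the minimum of 5 cells only in the 3 ipilimumab mice, with 63.1, 164 and 173, in the range of the capillary and interstitial macrophage classes. Circulating and recruited leukocytes were near 0: classical monocyte-like cells had 1.14 ± 0.728, T-like cells 1.13, NK-like cells 1.04, B-like cells 0.979 ± 0.303 and nonclassical monocyte-like cells 0.818. The cDC2-like cells had no Mertk UMI, which allows a pooled level of up to 1.595 CPM, for counting error only. Neutrophil-like cells had 9.95 ± 9.70, with values between 2.65 and 27.8.

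**Figure D2:**
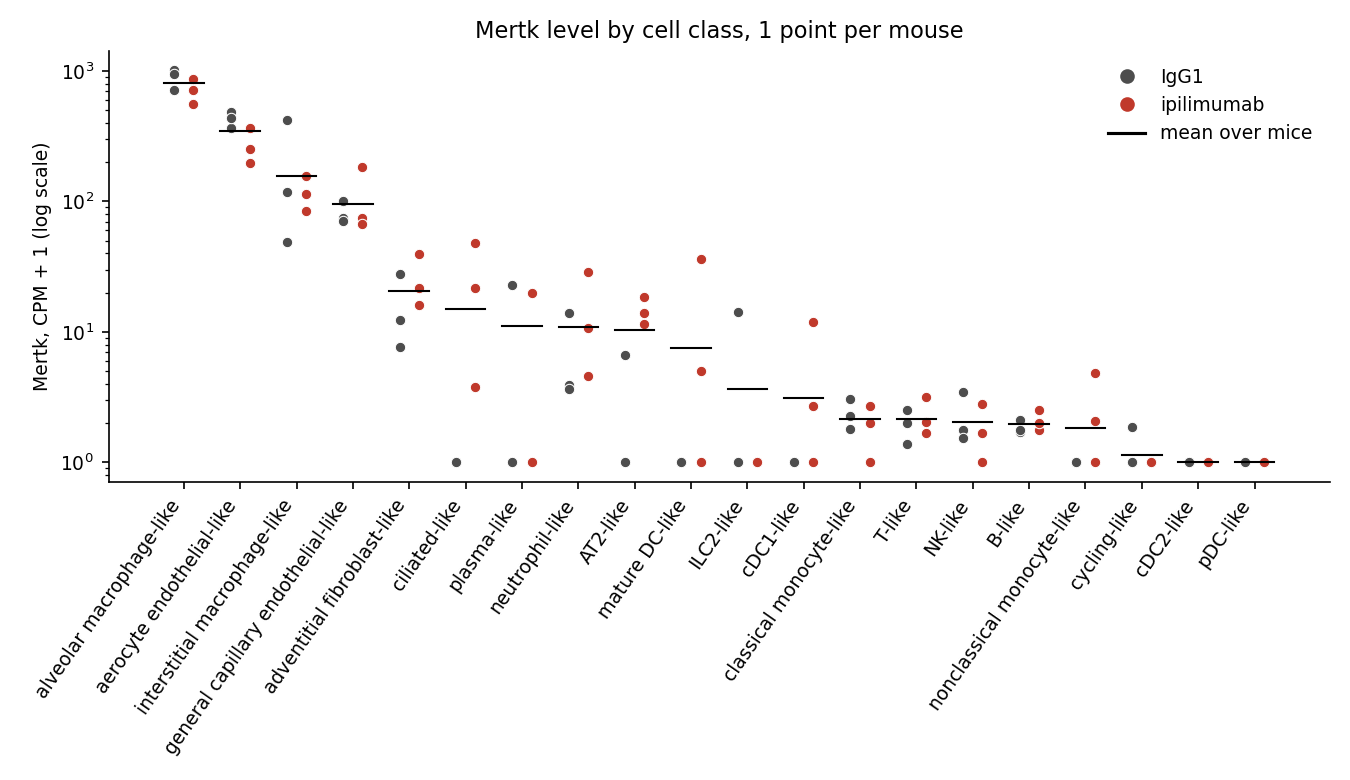
Mertk level in each cell class (log scale, CPM plus 1), 1 point per mouse, grey for IgG1 and red for ipilimumab, with a line at the mean over mice. Alveolar macrophage-like cells (mean 802) lay above aerocyte endothelial-like cells (349) in 6 of 6 mice, and lymphocyte and monocyte classes lay near 1.

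Neighbouring classes in the order of Mertk levels were compared within mice on log2(level + 10). The order came from the mean levels of these same mice. The p-values therefore do not account for the choice of the pairs and their direction, and are no independent support for the order. The difference between alveolar macrophage-like and aerocyte endothelial-like cells was 1.21 and was positive in 6 of 6 mice (exact two-sided sign-flip permutation test, p = 0.0313, the smallest that 6 mice allow). Aerocyte endothelial-like cells were above interstitial macrophage-like cells by 1.35 in 6 of 6 mice (exact p = 0.0313), and general capillary endothelial-like cells were above adventitial fibroblast-like cells by 1.81 in 6 of 6 mice (exact p = 0.0313). Interstitial macrophage-like and general capillary endothelial-like cells differed by 0.46 in 4 of 6 mice, which was within their spread (exact p = 0.4375). No p in any of the other 15 pairs was below 0.25. After adjustment over the 19 pairs the smallest exact p was 0.198, so no step passed 0.05. A single step at the smallest possible p could not pass after this adjustment, so the adjusted values do not decide whether it is real.

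The share of cells with at least 1 Mertk UMI followed the same classes. It was 99.1% of alveolar macrophage-like cells at a median of 21851.5 UMIs per cell, 61.8% of aerocyte endothelial-like cells at a median of 5303, and 18.8% of general capillary endothelial-like cells at a median of 3305. In B-like cells, which are not known to express Mertk, it was 0.598% at a median of 5573.5 UMIs, and this was taken as the background. By mouse the aerocyte share was 70.0% ± 17.6 (SD, n = 6), between 37.2% and 87.0%. The 137 aerocytes of ipilimumab replicate 1 had a median of only 1337 UMIs, against 5818 to 8558 in the other mice. When each cell was thinned to 1000 UMIs, which left out 74 aerocyte and 115 general capillary cells with fewer, the shares were 47.5% ± 5.63, 31.9% ± 7.42 and 6.40% ± 2.74 (SD, n = 6 mice), against 0.106% of B-like cells.

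Among single alveolar macrophage-like cells Mertk was more uneven than Axl and Pros1. The 10th percentile, median and 90th percentile of Mertk UMIs per cell were 4, 13 and 38, and the highest cell had 174. Axl had 4, 9 and 17, and Pros1 had 1, 4 and 9; all 3 were detected together in 93.6% of the cells. These UMIs are not corrected for the depth of the cell. With 3114 cells thinned to 5000 UMIs, the variance was 2.97 ± 0.44 times the mean for Mertk, 1.18 ± 0.08 times for Axl and 1.20 ± 0.11 times for Pros1 (SD, n = 6 mice), where counting error alone gives about 1. The lowest mouse for Mertk, at 2.54, was above the highest for Axl, at 1.27, and for Pros1, at 1.29. The spread beyond counting error was 70.2% ± 4.1 of the mean for Mertk, 27.4% ± 7.9 for Axl and 37.8% ± 19.5 for Pros1. The class was made of 1 cluster led by Chil3 and Ear2 (1935 cells) and 1 cluster led by Spp1, Mmp19 and Fn1 (1217 cells). Spp1 encodes osteopontin and Fn1 fibronectin, both of which are known in macrophages of fibrotic lungs. Mertk was at 807 ± 171 in the first cluster and at 796 ± 175 in the other, and Axl was at 453 and 424. Both clusters come from the same mice, and their differences within mice were not tested.

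The 7 alveolar macrophage markers were measured in every class beside Mertk, since RNA of macrophages can reach the droplets of other cells. If all marker UMIs of a class had come with Mertk in the ratio seen in macrophages, aerocyte endothelial-like cells would have held 40.6 Mertk UMIs, and the observed number was 786. General capillary endothelial-like cells held 331 against 119, and interstitial macrophage-like cells 217 against 124. The macrophage markers summed to 101, 10.8 and 6.83 CPM in the aerocytes of the IgG1 mice and to 22.2, 11.8 and 228 in those of the ipilimumab mice. In ipilimumab replicate 2, where general capillary Mertk was highest, the markers summed to 351 in that class and 61.95 of the 109 Mertk UMIs would have come with them. In IgG1 replicate 3, where interstitial macrophage Mertk was highest, they summed to 645 and 29.8 of the 61 UMIs would have. In ciliated-like (23 against 184), neutrophil-like (68 against 91.8), B-like (51 against 124) and classical monocyte-like cells (7 against 15.9) the observed number did not exceed the one given by the markers. It was also lower in cDC2-like (0 against 21.9) and cDC1-like cells (5 against 94.1). The markers can thus be present without Mertk in that ratio, so the number they give does not measure carried-over RNA. The part of such RNA in any class, here and below, was not tested.

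In AT2-like cells, the surfactant-producing cells of the alveolus, Mertk was low. It was at 5.66 and 0 in IgG1 replicates 1 and 2 and at 17.7, 10.5 and 13.05 in the ipilimumab mice, with IgG1 replicate 3 left out for having only 3 such cells. The 2 groups did not overlap, as for 12.7% of all genes with at least 10 UMIs in this class, in that direction. All values rest on 19 UMIs, against 8.15 that the macrophage markers would bring and 1.9 expected from free RNA. A UMI was found in 3.48% of the 230 cells, and in 0.699% of the 143 cells that could be thinned to 1000 UMIs. The gene did not pass the filter on low counts in this class and was not tested. The paper lists Mertk as lower in ipilimumab than in IgG1 in its own AT2 cell cluster. Car4 and Ednrb, which aerocytes carry, are also listed as lower there. Whether the cells of that cluster match the AT2-like cells here was not tested.

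Axl, the second TAM receptor of macrophages, was also highest in alveolar macrophage-like cells. It was at 460, 436 and 459 in the IgG1 mice and at 483.5, 449 and 353 in the ipilimumab mice, with a mean of 440 ± 45.4 (n = 6), and this class held 31502 of 33607 Axl UMIs (93.7%). Interstitial macrophage-like cells had 223 ± 57.7 and adventitial fibroblast-like cells 171 ± 56.0. Unlike Mertk, Axl was low in aerocyte endothelial-like cells, at 11.5 ± 9.52, where 28 UMIs were seen and the macrophage markers would bring 23.5. The cDC2-like cells had 36.7 ± 19.0, cDC1-like cells 31.6 ± 27.7, classical monocyte-like cells 19.4 ± 4.81 and B-like cells 1.82. In adventitial fibroblasts the 590 Axl UMIs were far more than the 19.5 that the macrophage markers would bring.

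Tyro3, the TAM receptor best known from the nervous system, was almost absent. It had 117 UMIs in all cells, of which 39 were in T-like, 15 in adventitial fibroblast-like, 15 in ciliated-like and 12 in NK-like cells. Alveolar macrophage-like cells held 4 Tyro3 UMIs. The highest level, in ciliated-like cells, was 8.99 ± 6.44 (n = 5), and adventitial fibroblast-like cells had 4.61 ± 2.52 (n = 6). None was found in 8530 B-like cells, which allows up to 0.0575 CPM, in aerocyte endothelial-like cells (up to 1.28) or in interstitial macrophage-like cells (up to 1.75).

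The ligand genes lay in different cells. Gas6 was highest in adventitial fibroblast-like cells, the Pi16- and Dpt-positive fibroblasts around vessels and airways, at 531, 629.5 and 655 in the IgG1 mice and 583, 524 and 770 in the ipilimumab mice, with a mean of 616 ± 91.9 (n = 6). These cells held 2300 of 3164 Gas6 UMIs (72.7%). AT2-like cells, with 8.94% of the UMIs, were at 147 and 215 in IgG1 replicates 1 and 2 and at 279, 137 and 67.4 in the ipilimumab mice, with a mean of 169 ± 80.7. Ciliated-like cells had 124 ± 34.98, interstitial macrophage-like cells 26.0 ± 12.5 and alveolar macrophage-like cells only 0.682 ± 0.434. The groups overlapped in the adventitial fibroblasts and in AT2-like cells.

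Pros1, the ligand that is also an anticoagulant of plasma, was spread over macrophages, endothelium and fibroblasts. In alveolar macrophage-like cells it was at 231, 216 and 246 in the IgG1 mice and at 222, 228 and 142 in the ipilimumab mice, with a mean of 214 ± 36.7, and these cells held 83.9% of the 18174 UMIs. Aerocyte endothelial-like cells had 170 ± 25.4, general capillary endothelial-like cells 146 ± 46.3 and adventitial fibroblast-like cells 132 ± 27.2 (n = 6 each). The 28 lymphatic endothelial-like cells had 278 ± 153 in the 3 mice with at least 5 of them. Monocytes were lower, at 34.4 ± 7.57 in the classical and 28.0 ± 8.15 in the nonclassical class, and B-like cells had 0.852. At a depth of 1000 UMIs, 18.7% of alveolar macrophage-like, 19.3% of aerocyte endothelial-like and 14.5% of general capillary endothelial-like cells had a Pros1 UMI.

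**Figure D3:**
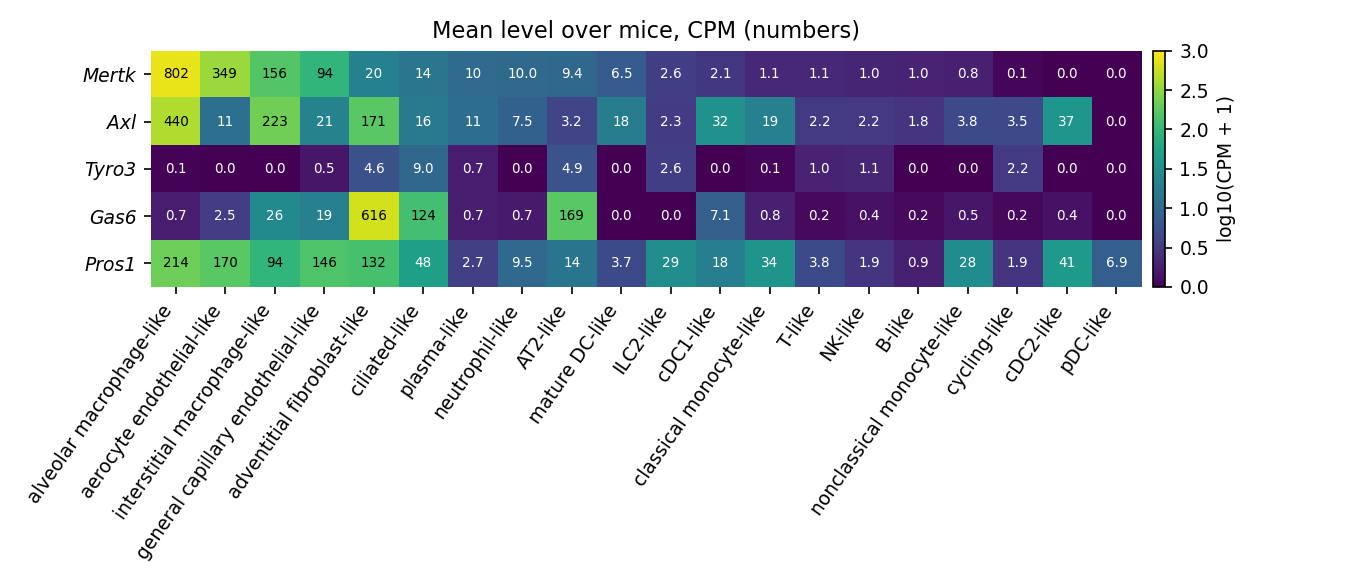
Mean level over mice of the 5 genes (rows) in each cell class with at least 5 cells in 4 or more mice (columns), as colour on a log10 scale and as printed CPM. Mertk and Axl shared the column of alveolar macrophage-like cells, while Gas6 was highest in adventitial fibroblast-like cells (616) and near 0 in alveolar macrophage-like cells (0.682).

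Genes whose mean levels were among the most like those of Mertk over 20 classes, out of 8943 genes, were Pald1 (Pearson's r = 0.95 on log2 levels), C2cd2l (0.90), Mgll (0.90) and Ttyh2 (0.90). For Axl they were Slco2b1 (0.93), Dab2 (0.93), Igf1 (0.91), Mmp19 (0.91) and Fblim1 (0.91). For Gas6 they were Ltbp3 (0.97), Cp (0.96), Slc4a4 (0.95), Col23a1 (0.95) and Sh3rf3 (0.95), and for Pros1 Vat1 (0.88), Slc39a1 (0.86), Rusc2 (0.86), Itgb5 (0.86) and Itpripl2 (0.86). Mertk itself had r = 0.79 with Pros1, 0.67 with Axl, 0.13 with Gas6 and -0.12 with Tyro3. These correlations describe classes that come from the same 6 libraries. The classes differ in depth, from a median of 1308.5 UMIs per cell in AT2-like to 24821.5 in cycling-like cells.

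Of the other 38 efferocytosis genes, only Abcg1, Sirpa, Lrp1 and Nr1h3 were also highest in alveolar macrophage-like cells. Abcg1, which exports cholesterol, was at 1613 ± 183, and Sirpa, the receptor of the CD47 signal against uptake, at 1034 ± 57.5. The uptake receptor Lrp1 was at 479 ± 36.5, close to 473 ± 61.3 in adventitial fibroblast-like cells, and the sterol sensor Nr1h3 at 62.9 ± 7.21. More of the 38 genes were highest in aerocyte endothelial-like cells, among them Adam10, Elmo1, Dock1, Rac1 and Cd47. Other receptors for phosphatidylserine were highest elsewhere: Timd4 in cDC1-like cells (419), Stab1 in aerocyte endothelial-like cells (147) and Cd36, a scavenger receptor, also in aerocytes (2111). Of the enzymes for the vitamin K-dependent carboxylation of the ligands, Ggcx was highest in AT2-like cells (35.2), Vkorc1 in adventitial fibroblast-like cells (195) and Vkorc1l1 in pDC-like cells (147), followed by alveolar macrophage-like cells (120).

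Summed over all cells of a mouse, Mertk ranged from 154 to 361 CPM. In such a sum, fewer cells of a type and less RNA per cell cannot be told apart. Mertk was at 285, 308 and 212 in the IgG1 mice and at 154, 361 and 211 in the ipilimumab mice. The lowest and the highest of the 6 were both ipilimumab mice. The share of alveolar macrophage-like cells was 10.4%, 19.3% and 8.69% of the cells in the IgG1 mice and 6.61%, 18.02% and 14.5% in the ipilimumab mice, and it did not separate the groups (12.8% ± 5.68 against 13.1% ± 5.85, exact two-sided permutation test, p = 1; 3 against 3 cannot go below 0.1). These cells gave 27.4%, 42.0% and 21.4% of all UMIs in the IgG1 mice and 19.9%, 40.5% and 36.2% in the ipilimumab mice. When every mouse was given the same mix of classes, Mertk was at 324, 235 and 306 in the IgG1 mice and at 230, 282 and 182 in the ipilimumab mice (288 ± 47.2 against 231 ± 49.7, exact permutation p = 0.2), and the ratio of the highest to the lowest mouse went from 2.34 to 1.78.

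Outside the alveolar macrophage-like cells, Mertk was at 11.5, 9.92 and 12.7 in the IgG1 mice and at 16.9, 14.7 and 14.5 in the ipilimumab mice. The groups did not overlap (11.4 ± 1.38 against 15.4 ± 1.32, n = 3 each, exact permutation p = 0.1, the smallest possible). Ipilimumab replicate 1, the library that stood apart, gave the highest value, 16.9. Axl (11.2 against 15.9) and Pros1 (14.9 against 22.6) likewise did not overlap between the groups outside these cells (exact permutation p = 0.1 each), while Tyro3 and Gas6 did. In the same sums, 13.4% of 20789 genes with at least 10 UMIs were higher in every ipilimumab mouse than in every IgG1 mouse. The 7 alveolar macrophage markers were among what moved this way: outside the alveolar macrophage-like cells they summed to 29.5, 31.1 and 23.4 CPM in the IgG1 mice and to 53.7, 49.1 and 44.5 in the ipilimumab mice. These sums mix all other classes, and aerocyte endothelial-like cells, the class with the most of these Mertk UMIs, numbered 52, 29 and 54 in the IgG1 mice and 137, 40 and 70 in the ipilimumab mice. The part of the markers and of the cell mix in these differences was not tested.

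**Figure D4:**
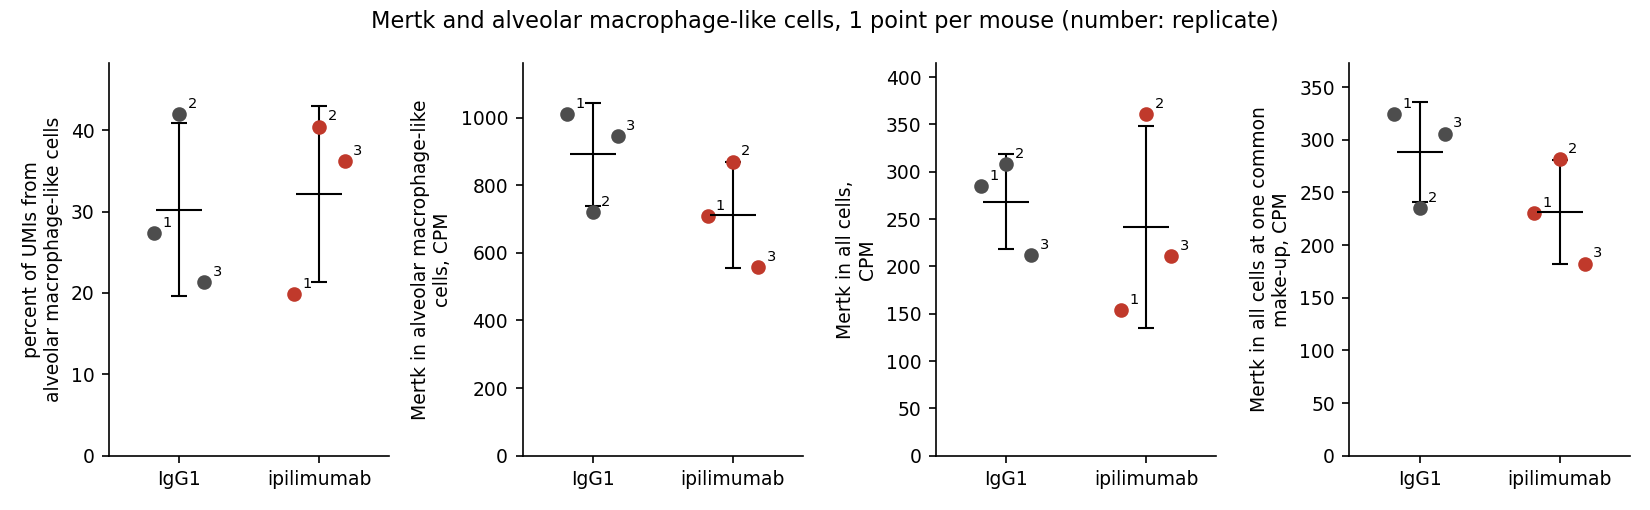
Share of UMIs from alveolar macrophage-like cells, Mertk level in these cells, and Mertk level over all cells before and after giving every mouse the same mix of classes, 1 point per mouse (number: replicate) with mean and SD of 3 mice per group. The IgG1 and ipilimumab points overlapped in all 4 panels.

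Whether ipilimumab changed the TAM genes was tested with edgeR on UMIs summed per mouse and class, with p-values adjusted over all genes of the class. Calls needed an adjusted p below 0.05 together with a log2 fold change beyond 0.3 in either direction. No TAM gene was called over all cells, where 0 of 17436 genes were called (0%). In the classes, 0 of 30 TAM gene tests were called by edgeR, 2 of them had an unadjusted p under 0.05, 16 were higher and 14 lower in ipilimumab, and DESeq2 called 0 of the 30 as well. Over all genes, 11 of 122704 class tests were called (0.00896%). The share of all genes with an unadjusted p under 0.05 is not given here, so the 2 of 30 are not read as a result.

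For Mertk in alveolar macrophage-like cells, whose values are given above, the groups overlapped, with a mean of 892 ± 152 in IgG1 and 712 ± 156 in ipilimumab. The log2 fold change was -0.33 (SE 0.18, edgeR adjusted p = 0.884), and 0 of 12414 genes were called in this class (0%). In aerocyte endothelial-like cells the means were 428 ± 62.3 and 270 ± 85.1, and the groups overlapped only in that the lowest IgG1 mouse, at 362.0, was just under the highest ipilimumab mouse, at 362.2. The log2 fold change was -0.64 (SE 0.21, edgeR unadjusted p = 0.0106, adjusted p = 0.351), in a class where 0.0168% of genes were called. In these cells the macrophage markers were highest in ipilimumab replicate 3, whose Mertk was the highest of its group, and their part in the value was not tested. The aerocytes of ipilimumab replicate 1 had a median of only 1337 UMIs, and the part of this low depth was not tested either. The treatment effect in macrophages minus that in aerocytes was 0.32 (SE 0.36, edgeR adjusted p = 0.981), so the effects were not shown to differ. General capillary endothelial-like cells had 0.37 (SE 0.39, edgeR adjusted p = 0.906), with the sign set by ipilimumab replicate 2: it was -0.20 without it. Interstitial macrophage-like cells had -0.61 (SE 0.64, edgeR adjusted p = 0.984), and 0.50 without IgG1 replicate 3. Over all cells the value was -0.18 (SE 0.34, edgeR adjusted p = 0.951), and 0.08 without ipilimumab replicate 1.

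The other TAM genes gave no call either. Axl had -0.08 (SE 0.11, edgeR adjusted p = 0.911) in alveolar macrophage-like and -0.34 (SE 0.27, edgeR adjusted p = 0.859) in adventitial fibroblast-like cells, and -0.027 there without IgG1 replicate 1. Gas6 over all cells was at 6.55, 8.82 and 14.97 in the IgG1 mice and at 25.1, 9.19 and 19.9 in the ipilimumab mice, groups that overlapped, with a log2 fold change of 0.78 (SE 0.41, edgeR adjusted p = 0.894). At a common mix of classes the Gas6 means were 13.7 and 14.1 (exact permutation p = 0.9), and within adventitial fibroblast-like cells the fold change was 0.04 (SE 0.20, edgeR adjusted p = 0.976). In AT2-like cells Gas6 had -0.22 (SE 0.48, edgeR adjusted p = 0.957). Pros1 in general capillary endothelial-like cells was at 153, 101 and 78.3 in the IgG1 mice and at 169, 183.9 and 192 in the ipilimumab mice. These groups did not overlap, as for 6.09% of genes of this class in that direction. The log2 fold change was 0.70 (SE 0.27, edgeR unadjusted p = 0.0260, adjusted p = 0.835) in a class where 0.0135% of genes were called. The class held 558 Pros1 UMIs, against 32.5 that the macrophage markers would bring. Pros1 had -0.23 (SE 0.16, edgeR adjusted p = 0.884) in alveolar macrophage-like cells, where it was -0.062 without ipilimumab replicate 3, and 0.13 (SE 0.20, edgeR adjusted p = 0.879) in aerocyte endothelial-like cells. Tyro3 passed the count filter only over all cells, with -0.13 (SE 0.46, edgeR adjusted p = 0.974).

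**Figure D5:**
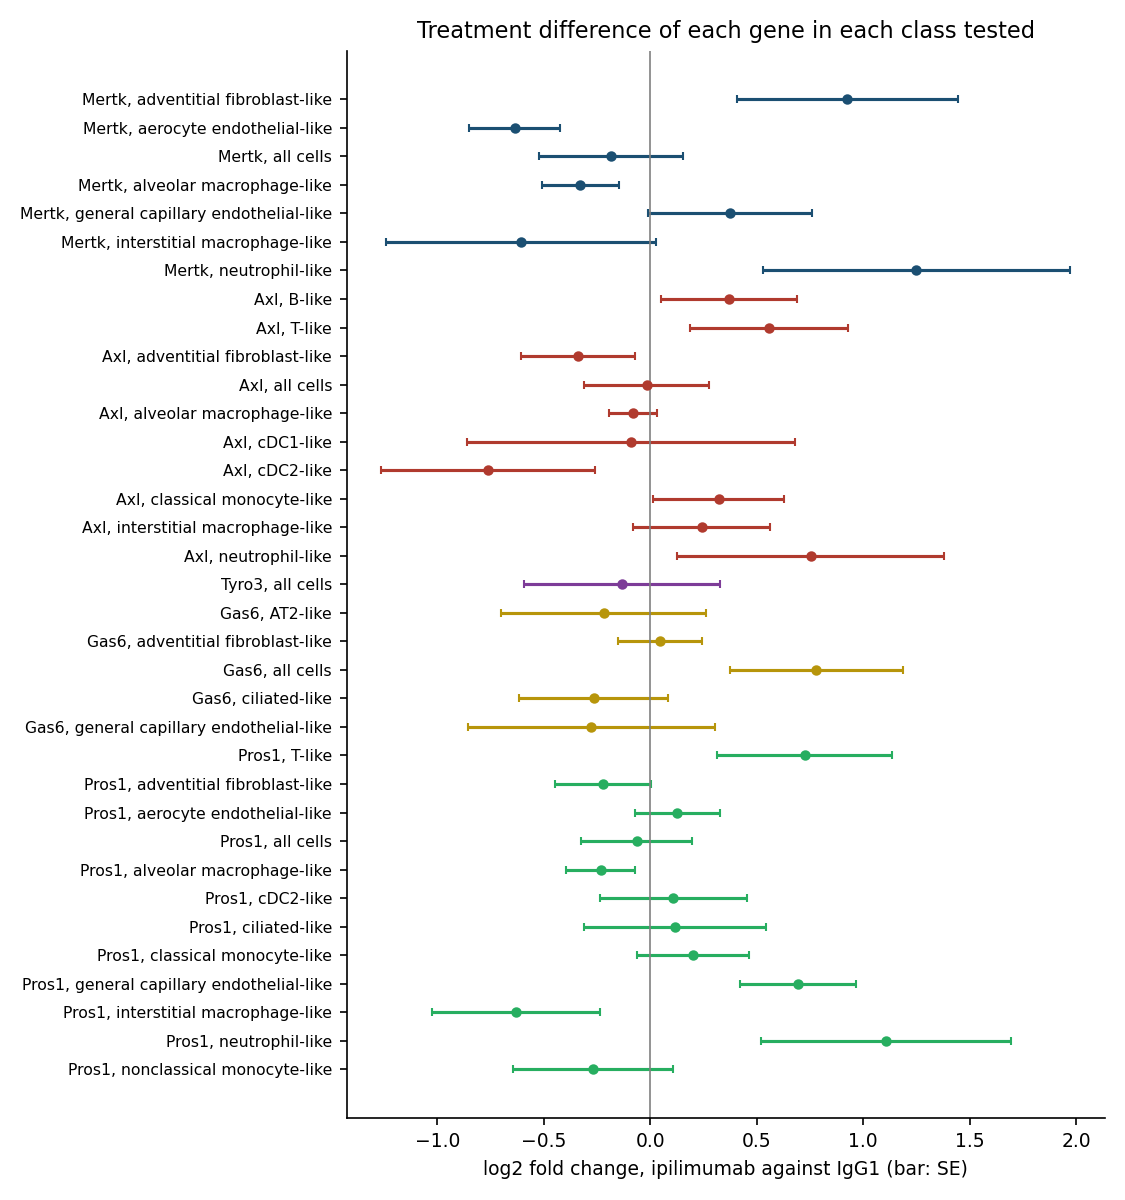
Log2 fold change of ipilimumab against IgG1 (horizontal axis, edgeR, points with bars of 1 SE) for each of the 5 genes over all cells and in each class where it passed the count filter (rows). No adjusted p was under 0.05; Mertk lay at -0.33 in alveolar macrophage-like and at -0.64 in aerocyte endothelial-like cells.

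Among the 38 other efferocytosis genes, edgeR called 0 of 410 gene and class tests, 25 had an unadjusted p under 0.05, and DESeq2 called 2. The share of all genes is given above only for edgeR calls, so the 25 and the 2 are not read as results. In alveolar macrophage-like cells the median log2 fold change of the list was -0.02, against 0.01 over all genes tested there; in aerocyte endothelial-like cells it was -0.09 against 0.00, and in general capillary endothelial-like cells 0.31 against -0.03, with 20 of 26 genes higher. In this last class the macrophage markers were highest in ipilimumab replicate 2, and their part in the median was not tested. In alveolar macrophage-like cells the gene of each group with the highest level had a small difference: Abcg1 -0.21 (SE 0.11, edgeR adjusted p = 0.884), the engulfment gene Elmo1 -0.10 (SE 0.12, edgeR adjusted p = 0.907), the sheddase Adam10 -0.15 (SE 0.08, edgeR adjusted p = 0.884), Cd36 0.25 (SE 0.25, edgeR adjusted p = 0.901), Sirpa -0.03 (SE 0.09, edgeR adjusted p = 0.960), the carboxylation gene Vkorc1l1 -0.01 (SE 0.08, edgeR adjusted p = 0.994) and the scramblase gene Ano6 -0.22 (SE 0.14, edgeR adjusted p = 0.884).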

How the data were processed

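Lung cells of 6 mice were profiled with the 10x Chromium 3′ assay. The authors deposited UMI counts per gene and barcode, made with Cell Ranger (version 7.0.0 per the submitters' processing notes) on mm10; the deposited counts were not corrected for free RNA, which the study removed with SoupX, and include all barcodes. The members and gene lists were chosen with earlier results of these data known, and 2 sets of genes that bar a class name (Hhip and Aspn; Icos and Ctla4) after seeing the data.

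Cells were called by a UMI threshold and a test of each profile against free RNA, with at least 200 genes and at most 10% mitochondrial UMIs, and simulated doublets were used to remove doublets. Scanpy 1.11.5 gave 2000 variable genes, without the efferocytosis genes, 10 principal components and Leiden clusters at resolution 0.8, which were named from fixed markers. UMIs were summed per mouse and class with at least 5 cells and tested with edgeR 4.0.16 (quasi-likelihood, TMM, filterByExpr, Benjamini-Hochberg); DESeq2 1.42.0 was an alternative. The mouse was the replicate (n = 3 per group), and depth was 37666042 to 48612412 UMIs per library. Intervals and floors (3 counts) cover counting error only. The script was checked on simulated data. Genes named outside the 5 were the highest of each list group in alveolar macrophage-like cells, the 5 most alike in pattern (1 of which is not reported here) and, chosen after their values were seen, Lrp1, Nr1h3, Timd4, Stab1, Ggcx and Vkorc1. Sequences came from RefSeq; all 5 genes matched. Strand use by the counter is not given in the sources used here, so antisense genes may share reads.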

Additional observations from a re-analysis of the deposited data

How the results depend on the processing

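No TAM gene was called under 17 of the 18 alternatives; without the filter on low counts 1 of 84 tests was, Mertk in ciliated-like cells (fitted log2 fold change 5.77, adjusted p 0.0356). Both IgG1 mice tested there had 0 Mertk UMIs, so this fitted value depends on the prior count and is no estimate of a fold. Calls in the other efferocytosis genes went from 0 to 2 with DESeq2 (Elmo1 in AT2-like and Cd36 in ciliated-like cells), 20 without the filter, 2 with the replicate block and 0 to 3 with 1 mouse left out. The share of all genes called under these settings is not given here, so the counts are not read as results about the listed genes. The macrophage share of Mertk UMIs was 92.5% with 30 principal components and 87.6% with marker gates of single cells. With 1 mouse left out it was 95.4% to 96.7%.

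Mertk over all cells ranged from -0.62 to 0.081 with 1 mouse left out and changed sign only without ipilimumab replicate 1. Mertk in alveolar macrophage-like cells stayed between -0.51 and -0.20 and in aerocyte endothelial-like cells between -0.88 and -0.47 (edgeR or DESeq2 adjusted p 0.0627 to 0.680). Mertk in general capillary endothelial-like cells was -0.20 without ipilimumab replicate 2, up to 0.61 without another mouse, and -0.49 with marker gates, and in interstitial macrophage-like cells it was -1.10 when IgG1 replicate 1 was left out and 0.50 when IgG1 replicate 3 was. Axl in alveolar macrophage-like cells ranged from -0.15 to 0.018, the latter without ipilimumab replicate 3. Gas6 in adventitial fibroblast-like cells was -0.05 without IgG1 replicate 1, -0.17 without ipilimumab replicate 3, 0.15 without ipilimumab replicate 2 and -0.077 with 30 principal components, and in AT2-like cells it ranged from -0.82 without ipilimumab replicate 1 to 0.068 without ipilimumab replicate 3. Pros1 in aerocyte endothelial-like cells ranged from -0.038 without ipilimumab replicate 1 to 0.25 without ipilimumab replicate 2. With 1 mouse left out, Axl in adventitial fibroblast-like cells was lowest, -0.55, when IgG1 replicate 2 was dropped and nearest to 0, -0.027, when IgG1 replicate 1 was, Pros1 in alveolar macrophage-like cells ranged from -0.36 to -0.062 (without ipilimumab replicate 3) and Gas6 over all cells from 0.52 (without ipilimumab replicate 1) to 1.16 (without IgG1 replicate 3). Pros1 in general capillary endothelial-like cells was 1.05 without IgG1 replicate 1 and 0.28 with cells called by UMI threshold alone. The difference in the macrophage share of cells ranged from -2.23 to 3.49 percentage points with 1 mouse left out, and the macrophage effect minus the aerocyte effect from -0.043 (without ipilimumab replicate 2) to 0.69. No step between neighbouring classes passed 0.05 after adjustment under its 3 alternatives, where a single step could not pass either.

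Mice with the same replicate number showed no steady tendency to deviate together. The correlations were 0.13, -0.03 and -0.14 in alveolar macrophage-like cells and 0.13, 0.30 and -0.16 over all cells. So few mice cannot show whether the numbers pair them. With the replicate block Mertk was -0.26 over all cells, -0.34 in alveolar macrophage-like and -0.65 in aerocyte endothelial-like cells, and no TAM gene was called.

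With 3 mice per group, small differences were not detectable, and AT2-like, lymphatic and alveolar fibroblast-like values rest on few cells, mostly of ipilimumab replicate 1 for AT2-like cells.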
